A study of Mus musculus with 12 samples.

Results

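The muscle genes Acta1, Ankrd1, Xirp2, Flnc, Myot and Neb are linked to the stretch of heart muscle and were chosen by their expression, as genes lower in the right than in the left ventricle of control mouse hearts. They were taken by symbol from the table of gene counts, where each had 1 Ensembl row, so that 6 of 40594 genes are covered. All 6 passed the filter on low counts, which left 15494 genes to test. Their values in that comparison are therefore a description, and no test of them is given. The 12 RNA-seq libraries fall into 4 groups of 3. They are Wnt LOF right ventricle (RV), Wnt LOF left ventricle (LV), control RV and control LV. All come from adult mouse hearts, and the RNA was isolated from ventricle with Trizol. Wnt LOF is taken to mean Wnt loss of function, and the labels name no allele, Cre or other means of that loss. Strain and sex are not given in the labels. Separate animals are not stated for the libraries within a group. Y-linked reads set the library numbered 3 apart from the others in each group, so each group holds RNA of more than 1 animal, and p-values are set against the spread between these libraries, of which a part may be technical.

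The 6 genes encode parts of the contractile lattice that take up or report mechanical load. Acta1 is the alpha-actin of skeletal muscle, which the loaded heart makes beside its own cardiac alpha-actin, Actc1. Ankrd1 is an ankyrin repeat protein that sits on the spring segment of titin and also enters the nucleus, and stretch of heart muscle is known to raise it. Xirp2 binds actin at the intercalated disc. Flnc is the muscle filamin, which crosslinks actin at the Z-disc, and Myot is a Z-disc protein that binds both alpha-actinin and filamin. Neb is nebulin, a giant protein laid along the thin filament of skeletal muscle, whose place in heart muscle is largely taken by its smaller relative nebulette. Serum response factor (SRF), the MEF2 factors and the TEAD factors are known activators of muscle genes and bind the CArG box, the MEF2 box and the MCAT element.

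Libraries held between 13274922 and 19173391 counted reads. The heart muscle markers fixed for this work were high throughout, with Myh6, the main adult mouse myosin, at 33700 to 39600 CPM, counts scaled to the library total. The libraries labelled Wnt LOF RV 1 and Wnt LOF LV 1 went against their ventricle labels in 3 genes taken as a check. These 3 were picked with earlier results of these data known, and other genes were not used for the check. Wif1, a Wnt inhibitor, Aqp4, a water channel, and Kcnd2, a potassium channel, were higher in all 3 control RV libraries than in all 3 control LV libraries. Of all genes tested 6.68% were higher in this way, and edgeR called none of the 3 between the control ventricles. The library labelled Wnt LOF RV 1 had 2.56 CPM of Wif1, against 13.5 CPM in the library labelled Wnt LOF LV 1. The other Wnt LOF libraries had 13.2 and 14.2 CPM in the RV, against 1.63 and 1.65 CPM in the LV. Aqp4 had 8.11 CPM in Wnt LOF RV 1 and 31.19 CPM in Wnt LOF LV 1. It had 35.45 and 27.48 CPM in Wnt LOF RV 2 and 3, against 8.03 and 10.55 CPM in LV 2 and 3. Kcnd2 was less clear, with 54.15 CPM in Wnt LOF RV 1 and 91.2 CPM in LV 1. Its level in Wnt LOF RV 1 was close to that in RV 3 (59.51 CPM) and above LV 2 and 3 (43.05 and 27.77 CPM). The library labelled control LV 2 differed from control RV 2 in 4 of 20 genes that were either on (at least 20 counts) or off (at most 5 counts) in every library. It differed from each of the libraries labelled Wnt LOF RV 1 and Wnt LOF LV 1 in 1 of the 20. From each of Wnt LOF RV 2 and Wnt LOF LV 2 it differed in 2. The other 5 right and left pairs of equal number differed in 0 to 2 of these genes. Libraries numbered 3 were in every group the only ones with over 1 CPM of the Y-linked gene Ddx3y. Results are therefore given with and without the libraries labelled Wnt LOF 1.

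Acta1 (ENSMUSG00000031972) varied most. It had 257, 55.4 and 251 CPM in Wnt LOF RV 1 to 3, and 37.2, 325 and 295 CPM in Wnt LOF LV 1 to 3. In control hearts it had 53.3, 95.9 and 190 CPM in the RV, against 302, 184 and 506 CPM in the LV. The Wnt LOF groups overlapped fully, with 1 low library in each, and the control groups overlapped by a single pair, control RV 3 and control LV 2. The highest library had 13.6 times the level of the lowest. Of 1517 genes whose mean log2 CPM lay within 1 unit of Acta1, 99.7% had a smaller standard deviation over the 12 libraries. Myot had the same share, among 4821 genes near its own level. The 12 libraries include the control ones that chose the genes, so nothing is read from these shares. Per length, Acta1 made up 3.12%, 0.761% and 3.30% of the summed Acta1 and Actc1 level in Wnt LOF RV 1 to 3, and 0.628%, 4.86% and 4.30% in Wnt LOF LV 1 to 3. That share was 0.765%, 1.55% and 3.01% in control RV, against 3.79%, 2.13% and 6.98% in control LV. Cardiac actin therefore made up over 93% of both in every library. Reads of the 2 actins could be told apart: 0 of 1568 stretches of 50 bases in Actc1 transcripts occur in another gene, while 2.02% of those in Acta1 do, shared with Actb and with annotated copies.

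The 250 bases before the start site are shown for the 4 genes of the 6 that are in the RefSeq promoter table (build GRCm38.p6), because known binding motifs of muscle regulators lie in them. Each is written 5′ to 3′ on the strand of its gene, and capitals mark matches, on either strand, to the CArG box, the MEF2 box, the MCAT element or the TATA box. Acta1 lies at chr8:123894776-123895025 on the minus strand, Ankrd1 at chr19:36119845-36120094 on the minus strand, Xirp2 at chr2:67445752-67446001 on the plus strand, and the downstream start of Flnc at chr6:29433006-29433255 on the plus strand.
Acta1: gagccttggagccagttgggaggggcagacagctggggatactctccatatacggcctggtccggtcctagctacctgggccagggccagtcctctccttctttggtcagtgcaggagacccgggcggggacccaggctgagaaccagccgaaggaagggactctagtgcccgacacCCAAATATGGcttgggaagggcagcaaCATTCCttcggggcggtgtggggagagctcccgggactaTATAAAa
Ankrd1: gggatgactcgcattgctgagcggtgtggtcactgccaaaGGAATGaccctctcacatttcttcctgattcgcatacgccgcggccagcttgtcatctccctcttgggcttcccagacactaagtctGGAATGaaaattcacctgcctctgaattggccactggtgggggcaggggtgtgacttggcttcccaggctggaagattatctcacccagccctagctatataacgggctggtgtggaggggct
Xirp2: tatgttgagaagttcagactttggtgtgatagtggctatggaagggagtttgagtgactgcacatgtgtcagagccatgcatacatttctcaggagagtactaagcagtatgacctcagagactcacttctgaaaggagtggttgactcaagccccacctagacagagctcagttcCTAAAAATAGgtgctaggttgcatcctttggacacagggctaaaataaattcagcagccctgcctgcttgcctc
Flnc: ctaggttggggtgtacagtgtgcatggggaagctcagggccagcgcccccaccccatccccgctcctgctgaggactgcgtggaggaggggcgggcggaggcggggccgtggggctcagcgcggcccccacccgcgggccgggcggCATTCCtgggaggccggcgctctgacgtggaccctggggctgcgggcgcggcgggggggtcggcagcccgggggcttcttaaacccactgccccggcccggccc
Acta1 has a CArG box at bases -73 to -64 before the start, an MCAT at -46 to -41 and a TATA box at -7 to -2. Ankrd1 has an MCAT on the opposite strand at -210 to -205 and at -123 to -118. Xirp2 has a MEF2 box at -74 to -65, and the downstream start of Flnc has an MCAT at -104 to -99. The upstream start of Flnc, at chr6:29432903-29433152, has no match. The Actc1 promoter, searched for comparison, has a CArG box at -47 to -38. None of the matches overlap. The MCAT element was searched as CATTCC. Over 32841 promoters of the same length, 1.47% hold a CArG box, 2.92% a MEF2 box, 12.6% an MCAT and 12.4% a TATA box. A match is a run of letters and was not tested for binding. The last of these motifs was searched as TATAAA.

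**Figure D1:**
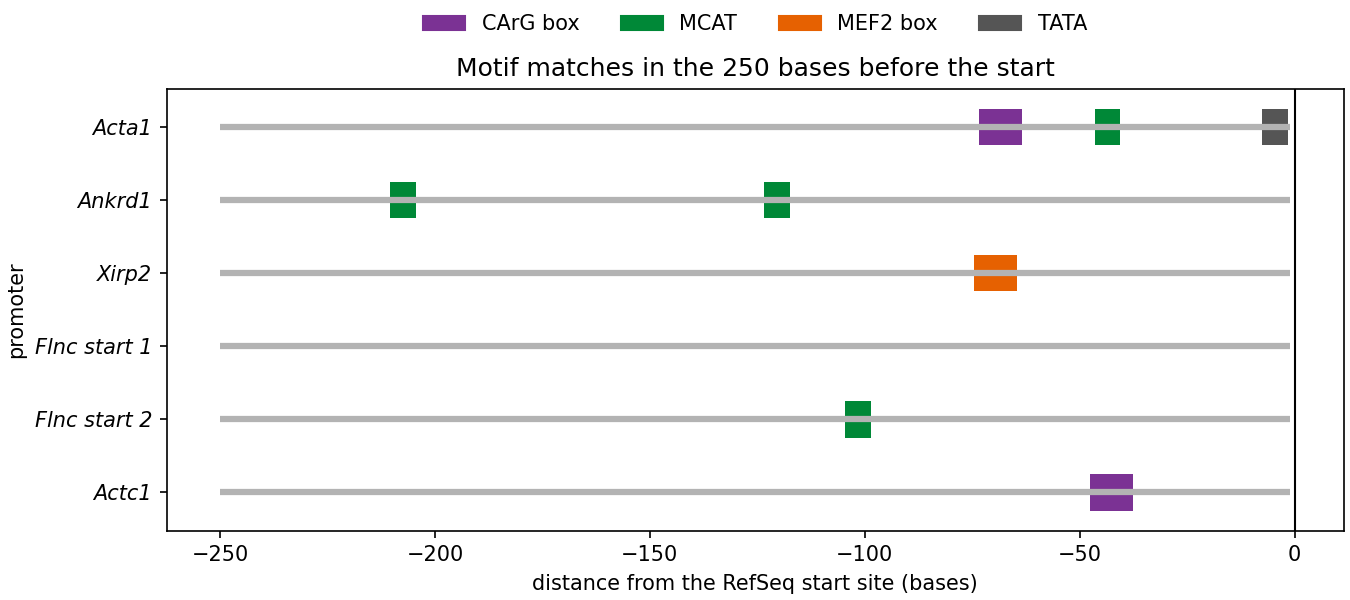
Motif matches in the 250 bases before RefSeq start sites of 4 of the genes and of Actc1. The horizontal axis gives the distance from the start site in bases, each grey line is 1 start site, and coloured boxes are matches on either strand. Acta1, Ankrd1 and the downstream start of Flnc each hold at least 1 MCAT, and Xirp2 holds the MEF2 box.

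Ankrd1 (ENSMUSG00000024803) followed much the same libraries. Its level was 1380, 513 and 1475 CPM in Wnt LOF RV 1 to 3, and 546, 1062 and 1631 CPM in Wnt LOF LV 1 to 3. Control RV had 656, 654 and 1108 CPM, against 1133, 1300 and 1330 CPM in control LV. The control groups did not overlap, although control RV 3 lay close to the lowest LV library. In Wnt LOF hearts the low libraries were RV 2 and LV 1, the same ones that were low for Acta1. Scaled to transcript length as well (RPKM), it was the most abundant of the 6 in control LV, at 435 ± 36.8 RPKM (SD, n = 3). On that scale Acta1 had 215 ± 106, Xirp2 118 ± 6.46, Flnc 97.7 ± 3.02, Myot 20.5 ± 11.7 and Neb 1.96 ± 0.565 RPKM in control LV.

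Xirp2 (ENSMUSG00000027022) and Flnc (ENSMUSG00000068699) had the narrowest ranges. Xirp2 was at 1558, 1182 and 1123 CPM in Wnt LOF RV 1 to 3, and at 1114, 1478 and 1229 CPM in Wnt LOF LV 1 to 3. Control RV libraries had 1016, 1022 and 1109 CPM of Xirp2, against 1341, 1495 and 1404 CPM in control LV. All control RV libraries lay below all control LV libraries, and the highest Wnt LOF library was the one labelled RV 1. Flnc was at 883, 657 and 768 CPM in Wnt LOF RV 1 to 3, and at 708, 1011 and 883 CPM in Wnt LOF LV 1 to 3. Control RV libraries had 734, 686 and 774 CPM of Flnc, against 949, 893 and 913 CPM in control LV. Again the control groups were apart, while the Wnt LOF groups overlapped through the libraries labelled 1. Over all 12 libraries, 79.2% of 130 genes near Xirp2 in level and 77.3% of 216 genes near Flnc had a smaller standard deviation. The control libraries that chose the genes are among the 12, so nothing is read from these shares either.

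Myot (ENSMUSG00000024471) had 20.2, 18.3 and 20.6 CPM in Wnt LOF RV 1 to 3, and 9.61, 36.9 and 25.7 CPM in Wnt LOF LV 1 to 3. Control RV had 15.8, 14.0 and 32.0 CPM, against 34.8, 26.3 and 74.9 CPM in control LV. The Wnt LOF RV libraries were close together, and the Wnt LOF LV libraries lay on both sides of them. In control hearts the libraries numbered 3, those with Y-linked reads, had the highest Myot and Acta1 of their groups. Each group has 1 such library, so a term for Y-linked reads could hardly move a difference between groups. With it the Wnt LOF RV over LV log2 fold change of Myot was -0.28 (SE 0.47). The part of these libraries' origin in the levels of Myot and Acta1 was not tested.

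Neb (ENSMUSG00000026950) did not share this pattern. It had 70.3, 54.7 and 39.4 CPM in Wnt LOF RV 1 to 3, and 86.2, 38.7 and 43.3 CPM in Wnt LOF LV 1 to 3. Control RV had 30.8, 40.7 and 32.5 CPM, against 39.1, 68.5 and 48.6 CPM in control LV. The highest libraries were those labelled Wnt LOF LV 1, Wnt LOF RV 1 and control LV 2. In the on-off genes above, control LV 2 differed from each of the other 2 in 1 of 20. It differed from Wnt LOF RV 2 and from Wnt LOF LV 2 in 2 of 20. Wnt LOF LV 2 had 38.7 CPM of Neb, the lowest Wnt LOF level. The library labelled Wnt LOF LV 1, which was lowest of all for Acta1 and Myot, was highest for Neb. The part of the libraries' origin in the level of Neb was not tested. Without control LV 2 the control RV over LV log2 fold change of Neb was -0.34, against -0.59 with it.

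**Figure D2:**
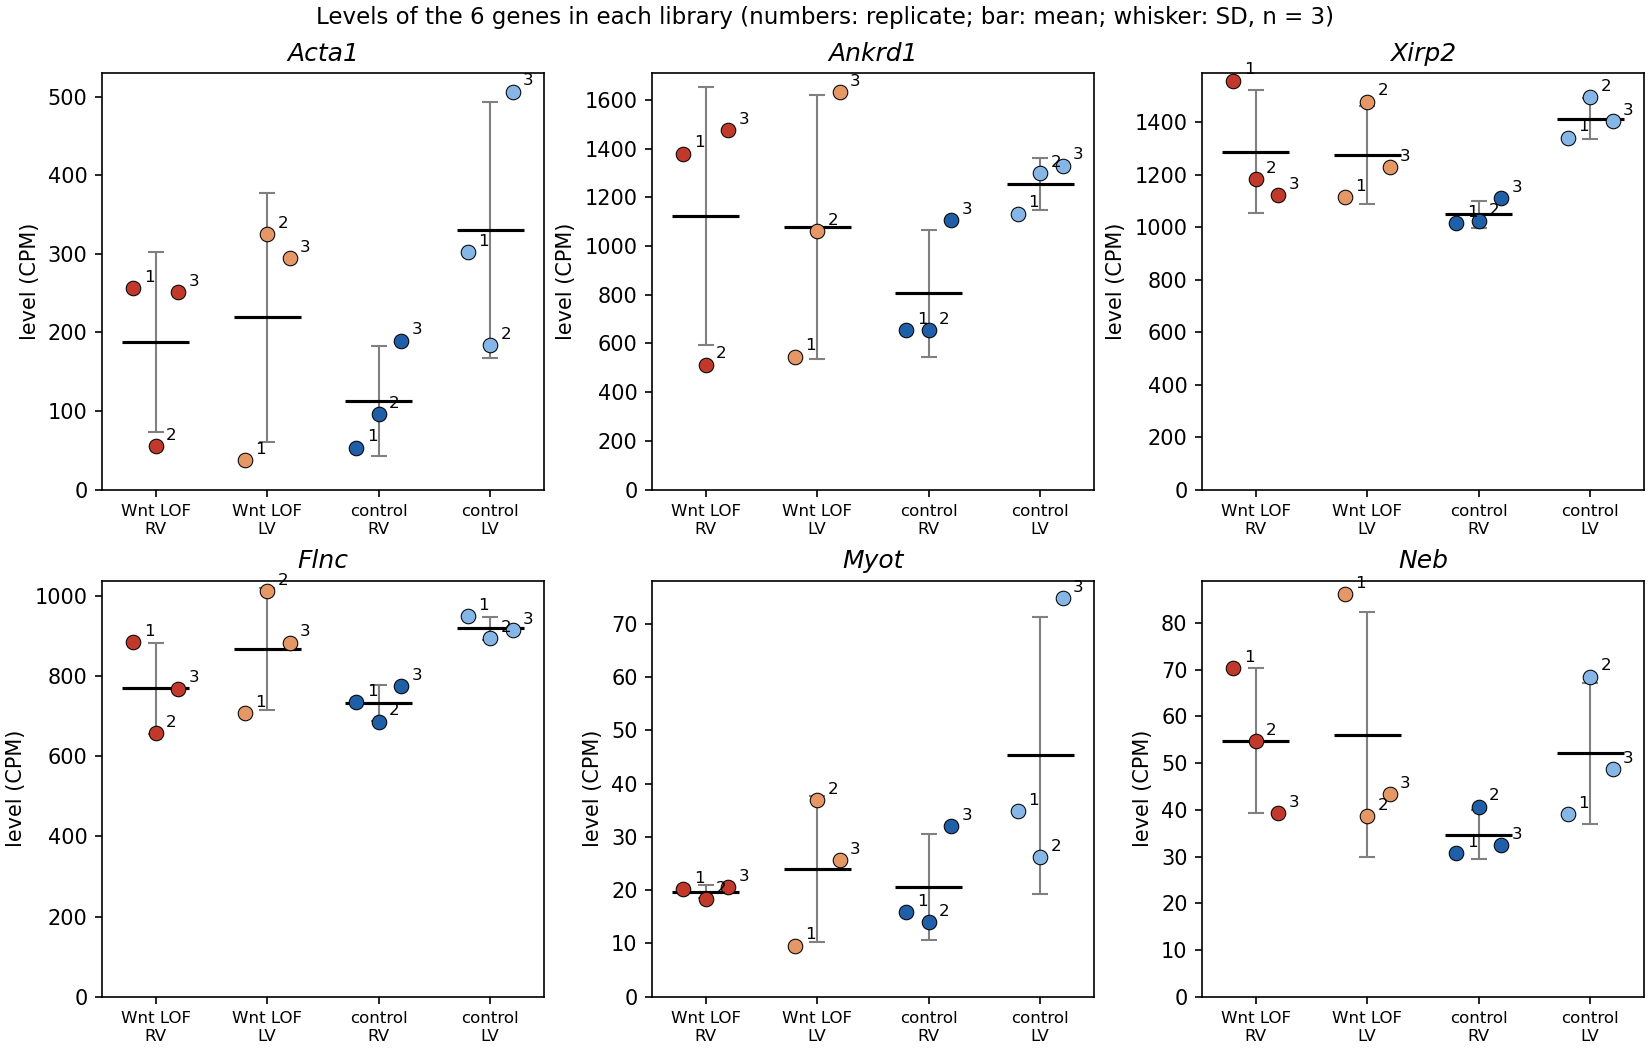
Level of each gene in CPM (vertical axes, from 0) in the 12 libraries, by group. Points are libraries with their replicate numbers, horizontal bars are means and whiskers are SD (n = 3). The control RV points lie below the control LV points for Ankrd1, Xirp2 and Flnc, and the Wnt LOF groups overlap for all 6 genes.

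By group, Acta1 averaged 188 ± 115 CPM in Wnt LOF RV, 219 ± 158 CPM in Wnt LOF LV, 113 ± 69.7 CPM in control RV and 331 ± 163 CPM in control LV (SD, n = 3 each). Ankrd1 averaged 1122 ± 530 CPM in Wnt LOF RV, 1080 ± 542 in Wnt LOF LV, 806 ± 262 in control RV and 1254 ± 106 in control LV. Xirp2 averaged 1288 ± 236 CPM in Wnt LOF RV, 1274 ± 186 in Wnt LOF LV, 1049 ± 51.9 in control RV and 1413 ± 77.4 in control LV. Control LV had the highest mean of these 3 genes and control RV the lowest. Flnc averaged 769 ± 113 CPM in Wnt LOF RV, 867 ± 152 in Wnt LOF LV, 732 ± 44.4 in control RV and 918 ± 28.4 in control LV. Myot averaged 19.7 ± 1.24 CPM in Wnt LOF RV, 24.0 ± 13.7 in Wnt LOF LV, 20.6 ± 9.92 in control RV and 45.3 ± 26.0 in control LV. Neb averaged 54.8 ± 15.5 CPM in Wnt LOF RV, 56.1 ± 26.2 in Wnt LOF LV, 34.6 ± 5.27 in control RV and 52.1 ± 15.0 in control LV. Over the 6, control LV had the highest mean of all but Neb, and control RV the lowest of all but Myot. When the groups of a gene are placed in order of their means, neighbours differed by less than the larger of their SDs, except that control RV lay further below the next group for Xirp2 and Neb. Bulk RNA does not tell fewer muscle cells from less RNA per cell.

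Right and left libraries of the same number were also set against each other, since equal numbers were correlated over all genes tested. Libraries of different genotype reached up to 0.321 (Wnt LOF LV 1 with control LV 2), so equal numbers may not come from the same heart. In Wnt LOF hearts these correlations do not settle the match of libraries 1 and 2. For RV 1 the correlation was 0.191 with LV 1 and 0.133 with LV 2. For RV 2 it was 0.197 with LV 2 and 0.201 with LV 1. The values of Wnt LOF pairs 1 and 2 below depend on that match. In control hearts, which chose the genes, all 6 were lower in the RV in each of the 3 pairs, with median log2 differences of -0.59, -0.83 and -0.46. In Wnt LOF hearts the pair labelled 1 ran the other way for 5 of the 6, with a median of 0.78. Acta1 differed by 2.79 on the log2 scale in that pair, Ankrd1 by 1.34, Myot by 1.07, Xirp2 by 0.48 and Flnc by 0.32, while Neb differed by -0.29. Pair 2 had 5 of 6 genes lower in the RV (median -0.82), with Acta1 at -2.55, Ankrd1 at -1.05, Myot at -1.01, Flnc at -0.62, Xirp2 at -0.32 and Neb at 0.50. Pair 3 had all 6 lower in the RV, by smaller amounts (median -0.17, Myot largest at -0.31). The direction in the Wnt LOF pairs thus matched the direction of Wif1 in each pair for Acta1, Ankrd1, Xirp2, Flnc and Myot, being low where Wif1 was high. The libraries of pair 3 also differed in atrial muscle markers, with 10.2 CPM of Myl7 in Wnt LOF RV 3, and the part of these in the result was not tested.

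**Figure D3:**
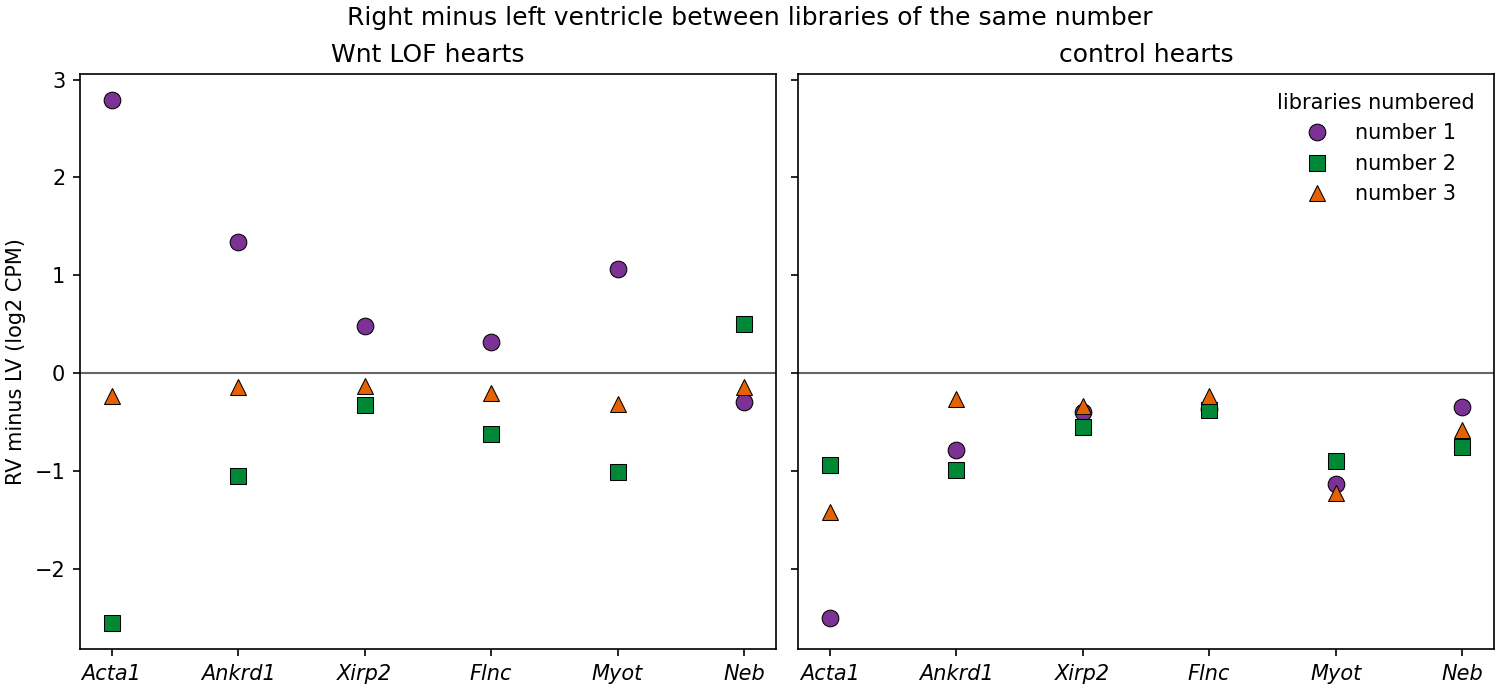
RV minus LV difference in log2 CPM (vertical axis) between libraries of the same replicate number, for each gene, in Wnt LOF hearts (left) and control hearts (right). In control hearts every point is below 0, and in Wnt LOF hearts the points of number 1 are above 0 for every gene but Neb.

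The comparison that chose the genes did not use the Wnt LOF libraries, so right against left was tested in these. The genes were still picked with earlier results of these data known, which limits the test. With all 6 libraries, none of the 6 genes passed the threshold, an adjusted p of 0.05 by edgeR's quasi-likelihood test over 15494 genes. The background share of genes called was 0% (0 of 15494, with 746 genes, 4.81%, and none of the 6 at an unadjusted p under 0.05; DESeq2 also called 0, with 645). With the replicate block edgeR called 1 gene, none of the 6. Log2 fold changes, RV over LV, were -0.22 (SE 0.88) for Acta1, 0.06 (SE 0.46) for Ankrd1 and 0.02 (SE 0.13) for Xirp2. They were -0.17 (SE 0.13) for Flnc, -0.28 (SE 0.55) for Myot and -0.03 (SE 0.33) for Neb, and the adjusted p was 1 for each of the 6 by edgeR. All but that of Flnc were smaller than their standard errors. With the replicate number as a block, the values ran from -0.17 for Flnc to 0.04 for Ankrd1, and the smallest adjusted p was 0.818, for Flnc, by edgeR. No gene of the 6 had groups that did not overlap, where 3.7% of all genes tested lay lower and 3.36% higher in the RV without overlap.

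Without the libraries labelled Wnt LOF RV 1 and Wnt LOF LV 1, 5 of the 6 genes had negative RV over LV fold changes, with a median of -0.42 on the log2 scale. Over all 15692 genes then tested the median was 0.0019 and 49.7% lay below 0. The values were -1.01 (SE 0.88) for Acta1, -0.68 (SE 0.58) for Myot, -0.43 (SE 0.48) for Ankrd1, -0.41 (SE 0.12) for Flnc, -0.23 (SE 0.12) for Xirp2 and 0.20 (SE 0.25) for Neb. Again none passed, the smallest adjusted p being 0.391 for Flnc (unadjusted p 0.00556, edgeR, 2 libraries a group). The background was 0.0127% of genes called, namely Wif1 (3.06, SE 0.25) and Aqp4 (1.76, SE 0.21). Acta1, Xirp2, Flnc and Myot were lower in both remaining RV libraries than in both LV libraries, 4 of 6 genes, where 19% of all genes tested were. None was higher in this way, where 17.8% of all genes were. The pair was left out because its ventricle genes went against the labels, so these values are conditioned on a measure of the same contrast and are no separate support.

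**Figure D4:**
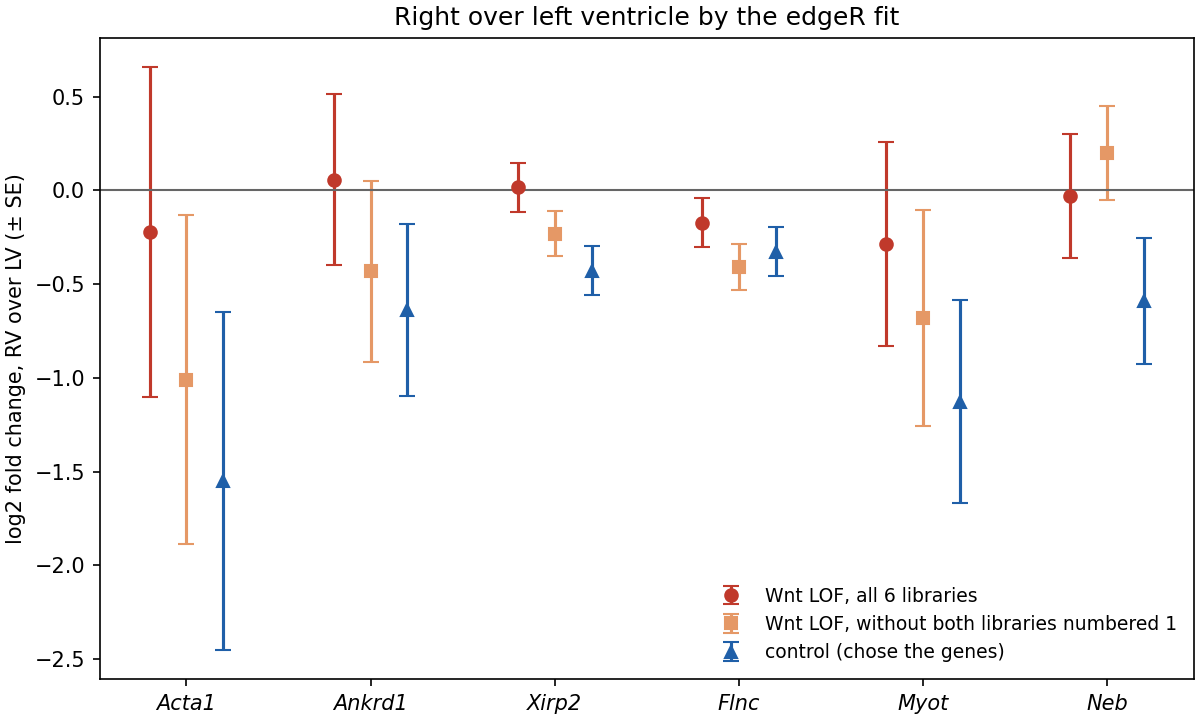
Log2 fold change of RV over LV from the edgeR fits (points) with standard errors (whiskers), for all 6 Wnt LOF libraries, for Wnt LOF without both libraries labelled 1, and for control hearts. The control values chose the genes. Leaving out the pair moves Acta1 to -1.01 and Flnc to -0.41, and Neb to 0.20.

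In control hearts, as a description, the RV over LV log2 fold changes were -1.55 (SE 0.90) for Acta1, -1.13 (SE 0.54) for Myot, -0.64 (SE 0.46) for Ankrd1, -0.59 (SE 0.34) for Neb, -0.43 (SE 0.13) for Xirp2 and -0.33 (SE 0.13) for Flnc. They correspond to 2.93-fold lower Acta1 and 1.26-fold lower Flnc in the RV. Ankrd1, Xirp2 and Flnc had groups that did not overlap, beside 5.92% of all genes that lay lower and 6.68% that lay higher in this way, and nothing is read from that count. At an unadjusted p under 0.05 edgeR had 757 of 15494 genes (4.89%) in this comparison and called 0 after adjustment, as did DESeq2 (683 unadjusted). With the replicate block edgeR called 0 in the fit over all libraries and 326 in the fit of the 2 control groups alone, which called 9 without the block. The value of Acta1 moved to -1.11 without control LV 3 and to -2.15 without control RV 3, and that of Myot to -0.57 without control LV 3. The Wnt LOF value less the control value was 1.33 for Acta1, 0.84 for Myot, 0.69 for Ankrd1, 0.56 for Neb, 0.45 for Xirp2 and 0.16 for Flnc on the log2 scale. These differences hold the control values that chose the genes, so no test of them is given.

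Wnt LOF was also set against control within each ventricle. Those comparisons use the control libraries that chose the genes, with control LV high and control RV low by that choice, so they are given as values with no test. In the RV, log2 fold changes of Wnt LOF over control were 0.73 (SE 0.89) for Acta1, 0.66 (SE 0.34) for Neb, 0.48 (SE 0.46) for Ankrd1, 0.30 (SE 0.13) for Xirp2, 0.07 (SE 0.13) for Flnc and -0.07 (SE 0.55) for Myot. Xirp2 was higher in all 3 Wnt LOF RV libraries than in all control RV libraries, 1 gene of 6, where 3.61% of genes tested were; 3.94% were lower in this way. Without the libraries labelled Wnt LOF 1 the RV values were 0.44 for Acta1, 0.44 for Neb, 0.31 for Ankrd1, 0.14 for Xirp2 and -0.04 for Flnc. Without control RV 3 that of Myot was 0.40 and that of Acta1 1.34, and without Wnt LOF RV 2 that of Acta1 was 1.17. In the LV, Wnt LOF over control was -0.91 (SE 0.54) for Myot, -0.59 (SE 0.88) for Acta1, -0.22 (SE 0.46) for Ankrd1, -0.15 (SE 0.13) for Xirp2, -0.08 (SE 0.13) for Flnc and 0.11 (SE 0.33) for Neb. All LV groups overlapped for these 6 genes, where 3.95% of genes tested lay apart in each direction. Without the library labelled Wnt LOF LV 1, the LV values were -0.09 for Acta1, 0.10 for Ankrd1, -0.06 for Xirp2, 0.04 for Flnc, -0.53 for Myot and -0.35 for Neb. Without control LV 3, Myot was at -0.34 and Acta1 at -0.15. Across all genes edgeR and DESeq2 called 0 in either ventricle, with 442 genes (2.85%) in the LV and 418 (2.7%) in the RV at an unadjusted p under 0.05 by edgeR (323 and 303 by DESeq2).

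The authors' deposited table of Wnt LOF against control in the LV lists log2 fold changes of -1.23 for Acta1, -1.10 for Myot, -0.48 for Ankrd1, -0.18 for Xirp2, -0.13 for Flnc and 0.17 for Neb. The authors' deposited table for the RV lists 0.63 for Neb, 0.62 for Acta1, 0.37 for Ankrd1, 0.22 for Xirp2, 0.04 for Flnc and -0.23 for Myot. The smallest adjusted p over all genes of the authors' deposited tables was 0.841 in the LV and 0.918 in the RV. Those values come from the authors' own fits, over 14276 genes in the LV and 14275 in the RV. For Acta1 in the LV the edgeR fit used here gave -0.59, and -0.999 to -0.09 with each library left out in turn. The reason for the difference was not tested.

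Over the 12 libraries, 5 of the 6 genes tended to go up and down together. Pearson correlations of log2 CPM among Acta1, Ankrd1, Xirp2, Flnc and Myot ran from 0.564 (Xirp2 with Myot) to 0.898 (Acta1 with Ankrd1). By rank (Spearman) the same pairs ran from 0.476 (Ankrd1 with Myot) to 0.867 (Acta1 with Myot). Acta1 with Ankrd1 had 0.643 by rank. Pearson correlations of Neb with the other 5 ran from -0.305 (Myot) to 0.405 (Xirp2). Libraries of 1 ventricle or number may share a source, which the labels do not state, and the genes were chosen for a common direction in the control ones, so these are descriptions.

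Among the genes most alike in pattern was a relative of Ankrd1. Ankrd23, which encodes another ankyrin repeat protein of the titin spring, had a Pearson correlation of 0.949 with the mean z-score of the 6 genes, the third highest of 9250 other genes with a mean log2 CPM of at least 3. It had 352, 139 and 242 CPM in Wnt LOF RV 1 to 3, and 145, 282 and 302 CPM in Wnt LOF LV 1 to 3. Control RV had 149, 152 and 299 CPM of it, against 322, 338 and 428 CPM in control LV. Its control groups did not overlap, where 5.92% of all genes tested lay lower in the RV in this way, and its Wnt LOF groups did. Ankrd23 was picked for its likeness to the 6 genes over these same libraries, so its values are no separate support. RV over LV in Wnt LOF hearts gave a log2 value of 0.01 (SE 0.40; edgeR adjusted p 1), and -0.61 (SE 0.38) without the libraries labelled 1. The others of the 8 most alike were 6430548M08Rik (0.969), Rrp12 (0.954), Sorbs2 (0.946), Tmem144 (0.941), Papln (0.926), F2r (0.921) and Dact3 (0.921). Sorbs2 encodes a Z-disc adaptor and F2r a thrombin receptor.

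For single genes, the closest patterns were Hyal2 (0.938) and Gnb3 (0.93) for Acta1, Nop56 (0.951) and Ptgds (0.944) for Ankrd1, and Trim30a (0.922) for Xirp2. They were Rasip1 (0.972) and Arap3 (0.955) for Flnc, and Ankrd13a (0.943) for Myot. The highest for Neb was lower, Rasgrf2 with 0.843. Rasip1 and Arap3 are known from endothelial cells. The 4 endothelial markers summed to 590 to 755 CPM in Wnt LOF RV, 588 to 756 in Wnt LOF LV, 632 to 695 in control RV and 750 to 812 CPM in control LV. The control groups did not overlap in that sum, and its part in the values of Flnc was not tested.

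**Figure D5:**
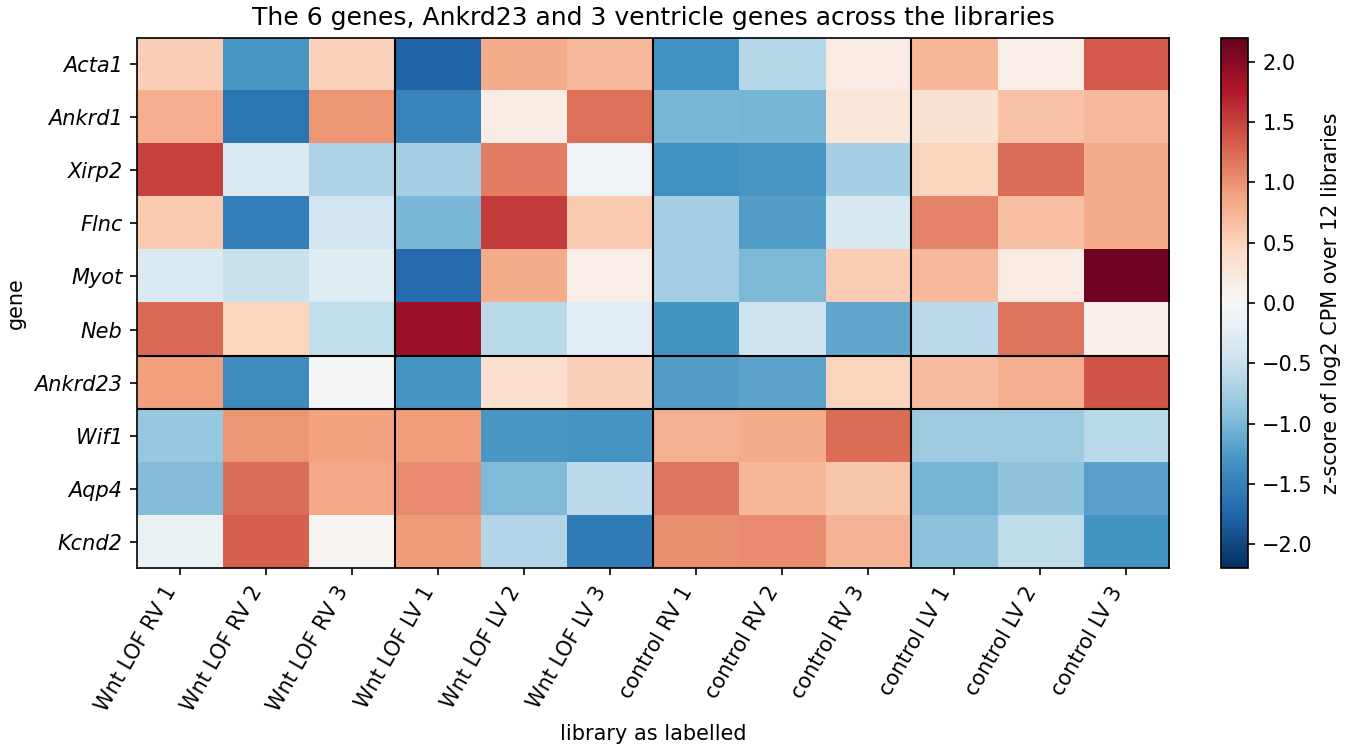
Z-scores of log2 CPM over the 12 libraries (colour) for the 6 genes, Ankrd23 and the ventricle genes Wif1, Aqp4 and Kcnd2 (rows), by library as labelled (columns). Acta1, Ankrd1, Flnc and Ankrd23 are low in Wnt LOF RV 2 and in the library labelled Wnt LOF LV 1, while Xirp2 and Myot are near their mean in RV 2. In both libraries Wif1 and Aqp4 are high. Neb is high in the libraries labelled Wnt LOF RV 1, Wnt LOF LV 1 and control LV 2.

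Other genes of the load-bearing lattice were counted in Wnt LOF RV against LV, where 50.2% of all genes lay below 0 and edgeR called none of any list. Of titin and its spring partners, 4 of 8 tested lay lower (median -0.01). Titin itself, Ttn, had 89220 CPM in the RV and 82660 CPM in the LV (log2 fold change 0.11, SE 0.09), and Cryab, a small heat shock protein, had 0.26 (SE 0.13). Of 12 thin filament genes, 8 lay higher (median 0.05), with Tpm1, a tropomyosin, at 0.26 (SE 0.13) and Actc1 at 0.26 (SE 0.10). Of the 12, 4 were higher in all 3 Wnt LOF RV libraries than in all LV libraries, Tpm1 and Actc1 among them, where 3.36% of all genes were, with an adjusted p of 1 for Tpm1 and Actc1 by edgeR. Of 13 Z-disc genes, 11 lay higher (median 0.08), with the intermediate filament gene Des at 0.08 (SE 0.08) and Cmya5 at 0.00 (SE 0.09).

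Of 8 filamin partners and chaperones, 5 lay higher (median 0.00), with Hspb7 at -0.04 (SE 0.22) and Hspb8 at 0.19 (SE 0.12). Of 11 costamere and mechanosensing genes, 7 lay higher (median 0.04), with the LIM protein gene Fhl2 at 0.14 (SE 0.12) and dystrophin, Dmd, at 0.05 (SE 0.08). Of 11 genes of SRF, MEF2, TEAD and their cofactors, 6 lay higher (median 0.01), with Mef2a at -0.09 (SE 0.10) and Tead1 at 0.02 (SE 0.13). Of 10 other genes known to rise in stretched heart muscle, 6 lay higher (median 0.02), with the slow myosin Myh7 at -0.31 (SE 0.13) and the matricellular gene Ctgf at 0.05 (SE 0.39). Without the libraries labelled Wnt LOF 1, 8 of these 10 lay lower (median -0.10) and 6 of the 8 filamin partners lay lower (median -0.08). In that fit 8 of 12 thin filament genes lay higher (median 0.15), as did 7 of 13 Z-disc genes (median 0.03), 6 of 11 costamere genes (median 0.04) and 6 of 11 regulators (median 0.00067). Titin and its partners were split evenly (median -0.02). None of these lists had a called gene in that fit either. As for the 6 genes, counts without that pair are conditioned on a measure of the same contrast and are no separate support. In control hearts 9 of 11 regulators (median -0.13) and 8 of 10 stretch genes (median -0.24) lay lower in the RV, where 49.0% of all genes did. So did 6 of 8 titin genes (median -0.06), 9 of 13 Z-disc genes (median -0.03), 5 of 8 filamin partners (median -0.09), 6 of 12 thin filament genes (median 0.02) and 5 of 11 costamere genes (median 0.00348). Ctgf lay the other way, with 120 ± 53.2 CPM in control RV and 58.4 ± 19.9 CPM in control LV (SD, n = 3 each), a log2 fold change of 1.03 (SE 0.39) with overlapping groups. These control values share the libraries that chose the 6 genes.

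Acta1, Myot and Neb are genes of skeletal muscle, so its markers were read in each library. All 16 markers are in the count table. Of these, 14 summed to at most 6.62 CPM in any library, with none above 1.63 CPM, and Tnnc2 was at 0 in all 12. They include the fast myosins Myh1, Myh2 and Myh4. The summed level of all 16 was 19.6 to 50.9 CPM in Wnt LOF RV, 19.5 to 51.4 CPM in Wnt LOF LV, 21.6 to 60.2 CPM in control RV and 42.4 to 94.1 CPM in control LV. It was carried by Mybpc2, a myosin-binding protein, and Casq1, a calsequestrin. Mybpc2 had 35.5, 7.22 and 15.3 CPM in Wnt LOF RV 1 to 3 and 9.84, 33.1 and 25.1 CPM in Wnt LOF LV 1 to 3. It had 12.3, 14.8 and 24.5 CPM in control RV, against 28.9, 33.2 and 38.2 CPM in control LV. Mybpc2 and Acta1 were thus both low in Wnt LOF RV 2, Wnt LOF LV 1 and control RV 1. In Wnt LOF RV 3 they parted, with Mybpc2 near its control RV 2 level and Acta1, at 251 CPM, above all control RV libraries. Casq1 reached 29.6 CPM in control RV 3 and 49.5 CPM in control LV 3, against at most 13.1 CPM in the others. Smooth muscle and pericyte markers summed to 981 to 1301 CPM in Wnt LOF RV, 958 to 1078 in Wnt LOF LV, 839 to 1070 in control RV and 943 to 1114 CPM in control LV, with the groups overlapping. Fibroblast markers summed to 651 to 741 CPM in Wnt LOF RV, 561 to 662 in Wnt LOF LV, 558 to 718 in control RV and 571 to 688 in control LV. Heart muscle markers summed to 59380 to 62290 CPM in Wnt LOF RV, 57260 to 61230 in Wnt LOF LV, 61240 to 65700 in control RV and 57960 to 60520 in control LV, the control groups lying apart. The part of any of these in the 6 genes' levels was not tested.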

How the data were processed

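The authors deposited raw counts per Ensembl gene for 12 libraries; per the submitters' processing notes the tools were featureCounts (Subread) and edgeR. Not given in the sources used here are aligner, build and strandedness, and reads of antisense or overlapping genes may be mixed. Of 41192 rows, 598 repeated a gene with equal counts and were left out. Per the file headers, 2 further deposited tables hold the authors' Wnt LOF against control results: log2 fold change, p-value, a signed linear fold (score) and each library's log2 CPM.

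Counts were fitted with edgeR 4.0.16 in R 4.3.3 (filterByExpr, TMM, robust quasi-likelihood, 1 mean per group over 12 libraries), p-values being adjusted by Benjamini-Hochberg over 15494 genes. The SE is the log2 fold change over the square root of F. CPM use TMM-scaled totals of the tested genes. RPKM divide by union exon length in GENCODE M21. Scripts were tested on simulated counts with 200 changed genes. DESeq2 1.42.0, other scalings, filters, replicate blocks and left-out libraries were alternatives. Equal numbers had correlated deviations between ventricles (0.191, 0.197 and 0.594 in Wnt LOF hearts, 0.411, 0.29 and 0.517 in control hearts, all above 0.1), so they were taken as pairs. For Wnt LOF RV 2, the correlation with LV 1 (0.201) exceeded that with LV 2. Some libraries of different genotype also passed 0.1, so that limit does not single out pairs. Wnt LOF LV 1 with control LV 2 had 0.321. Wnt LOF RV 3 with control RV 3, both with Y-linked reads, had 0.306.

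The 6 genes and all lists were chosen with earlier results of these data known. The named genes are the 6, Wif1, Aqp4, Kcnd2, Actc1, the 2 most abundant of each list and the genes of most similar pattern. Mybpc2, Casq1, Ankrd23 and the on-off limits were singled out with values in view.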

Additional observations from a re-analysis of the deposited data

How the results depend on the processing

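In Wnt LOF RV against LV no alternative ended or made a call for any of the 6 genes. Signs turned for all but Flnc under at least 1 alternative. Without the libraries labelled Wnt LOF 1, Ankrd1 was -0.43, Xirp2 -0.23 and Neb 0.20 (log2 fold change), with adjusted p of 0.868, 0.611 and 0.881 by edgeR, and without control LV 2 as well (an alternative chosen after seeing the data) -0.43, -0.23 and 0.20. With total counts Xirp2 was -0.0393. With the replicate block Neb was 0.0142 in all libraries and 0.0106 in the 2 groups alone. With each library left out in turn, values ran from -0.72 to 0.21 for Acta1, -0.26 to 0.47 for Ankrd1, -0.15 to 0.13 for Xirp2, -0.30 to -0.05 for Flnc, -0.67 to 0.16 for Myot and -0.27 to 0.42 for Neb. The cause was not tested.

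Genes called over the whole table in Wnt LOF RV against LV were 0, but 1 with the replicate block in all libraries or in the 2 groups alone, 2 without the libraries labelled Wnt LOF 1, 2 without control LV 2 as well, and 0 to 1 with 1 library left out. In control RV against LV they were 0, but 9 with the 2 groups alone, 326 with the block and the 2 groups alone, and 2 without the libraries labelled Wnt LOF 1, with or without control LV 2. Wnt LOF over control gave 0 in the LV throughout and 0 to 1 in the RV with 1 library left out (1 without the library labelled Wnt LOF LV 1). The replicate block changed no call among the 6 genes in Wnt LOF RV against LV. In control hearts, without control LV 3 the RV over LV value of Myot was -0.57, against -1.13 with it. With 3 libraries a group and standard errors of 0.33 to 0.88 for 4 of the 6 genes, small differences could not be detected.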
